A study of Mus musculus with 12 samples.

Results

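The chromatin of 7 genes that mark megakaryocytes and platelets was followed by ATAC-seq in mouse bone marrow progenitors with and without an enhancer of Spi1, the gene of the transcription factor PU.1. The genes were Pf4, Itga2b, Itgb3, Vwf, Gp9, Gp1ba and Nfe2. Their regions were all open chromatin regions of the count table that overlapped the gene body extended by 20 kb on each side (GRCm38, GENCODE M21 basic transcripts), which gave 93 of 121336 regions. Itgb3 had 25 of them, Vwf 19, Itga2b 11, Pf4 10, Gp1ba 10, Gp9 9 and Nfe2 9. Of the 93 regions, 7 lay at the promoter of the gene itself (within 500 bp of an annotated start), 9 at promoters of neighbouring genes and 77 elsewhere, which are called distal here. Regions are named by the gene and the distance of their centre from its nearest annotated start, positive in the direction of transcription.

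Megakaryocytes are the bone marrow cells that shed platelets, and they descend from stem cells that share several surface proteins with them. Platelets stick to damaged vessel walls when the glycoprotein Ib-IX-V complex (Gp1ba, Gp9) binds von Willebrand factor (Vwf), and they aggregate through the integrin made of Itga2b (CD41) and Itgb3. Platelet factor 4 (Pf4) is a chemokine stored in their granules, and Nfe2 encodes a transcription factor needed for platelet release. In bone marrow, Vwf and Itga2b also mark a fraction of stem cells, so open chromatin at these genes in stem and progenitor cells need not stand for megakaryocytes.

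Libraries fell into 4 groups of 3, which were the LSK and the GMP cells of each genotype (WT-LSK and WT-GMP, URE-LSK and URE-GMP). LSK (Lin-Sca-1+c-Kit+) hold stem and early progenitor cells, and GMP (Lin-Sca-1-c-Kit+ and positive for the Fc gamma receptors) are granulocyte-monocyte progenitors, both sorted from bone marrow enriched for c-Kit. The mice were littermates on a C57BL/6 background, 8 to 12 weeks old and without other treatment in the labels. URE mice carried the germline genotype UREd/d, the loss of the upstream regulatory element of Spi1 in every cell, and WT mice had the intact element. The lineage antibodies did not include one against CD41, so neither sort removed cells by that protein. Levels are CPM, that is counts divided by the library total as adjusted by TMM, and they are not divided by region length unless said. Changes are log2 fold changes from edgeR's quasi-likelihood test on all 12 libraries, given with the standard error (SE), and adjusted p is Benjamini-Hochberg over all 121336 regions. A region was called higher or lower when adjusted p was under 0.05 and the log2 fold change was over 1 in size.

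The sequences of the 7 promoters are shown because these regions stand for the genes themselves in the comparisons that follow. They are the reference sequence (GRCm38) of the strand the gene is read from, up to 300 bases around the centre of the region with untranslated bases left out. Capitals mark matches on either strand to the exact letters searched here. They were those for GATA factors (AGATAA), RUNX (AACCACA), PU.1 (GAGGAAGT), other ETS factors (CCGGAAGT), NF-E2 (GCTGAGTCA) and the AP-1 core (TGAGTCA, which the NF-E2 letters contain). Other forms of these sites were not searched, so a stretch without a match may still hold them. Pf4 (chr5:90772186-90772434, plus strand) ended in a PU.1 match on the opposite strand, and Itga2b (chr11:102470091-102470390, minus strand) held a RUNX and a PU.1 match. The stretches of Vwf (chr6:125552830-125552947, plus), Gp9 (chr6:87777963-87778071, plus), Gp1ba (chr11:70638777-70639076, plus), Itgb3 (chr11:104607818-104607999, plus) and Nfe2 (chr15:103254998-103255149, minus) held no match to these letters. Outside the stretches shown, the Gp1ba and Nfe2 promoter regions each held a RUNX match, that of Itga2b a match to the letters of other ETS factors and that of Pf4 GATA matches.
Pf4 promoter: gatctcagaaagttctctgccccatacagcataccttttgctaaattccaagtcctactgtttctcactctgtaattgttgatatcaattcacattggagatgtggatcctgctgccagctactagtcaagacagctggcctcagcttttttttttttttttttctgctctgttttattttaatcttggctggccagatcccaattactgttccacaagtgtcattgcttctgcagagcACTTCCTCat
Itga2b promoter: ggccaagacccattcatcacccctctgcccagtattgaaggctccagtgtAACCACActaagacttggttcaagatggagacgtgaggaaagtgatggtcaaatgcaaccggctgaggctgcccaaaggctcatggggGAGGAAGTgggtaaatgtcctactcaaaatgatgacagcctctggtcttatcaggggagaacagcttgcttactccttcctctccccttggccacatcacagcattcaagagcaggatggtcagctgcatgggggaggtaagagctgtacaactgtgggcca
Itgb3 promoter: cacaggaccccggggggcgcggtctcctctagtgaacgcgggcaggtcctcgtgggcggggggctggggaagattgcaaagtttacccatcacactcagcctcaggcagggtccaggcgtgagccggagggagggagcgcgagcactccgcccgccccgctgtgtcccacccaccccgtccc
Vwf promoter: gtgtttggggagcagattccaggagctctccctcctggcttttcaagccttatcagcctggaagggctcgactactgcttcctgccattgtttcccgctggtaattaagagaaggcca
Gp9 promoter: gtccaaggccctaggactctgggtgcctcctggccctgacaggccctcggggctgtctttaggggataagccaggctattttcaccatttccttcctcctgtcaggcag
Gp1ba promoter: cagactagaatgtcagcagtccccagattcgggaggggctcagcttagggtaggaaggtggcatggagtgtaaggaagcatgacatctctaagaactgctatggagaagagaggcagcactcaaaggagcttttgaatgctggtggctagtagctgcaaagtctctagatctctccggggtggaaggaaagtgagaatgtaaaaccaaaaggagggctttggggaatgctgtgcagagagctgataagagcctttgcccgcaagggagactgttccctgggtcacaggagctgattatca
Nfe2 promoter: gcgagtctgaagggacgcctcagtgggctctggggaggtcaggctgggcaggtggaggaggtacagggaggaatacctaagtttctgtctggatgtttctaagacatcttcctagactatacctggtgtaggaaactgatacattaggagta

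A set of 4 distal regions is shown because each had the smallest p of its direction in a genotype comparison. Vwf +51.0 kb (chr6:125603834-125604133) was the first of the regions lower in URE-LSK, and Vwf +132.7 kb (chr6:125685487-125685786) the first of those lower in URE-GMP. Gp1ba +19.6 kb (chr11:70658645-70658891) was the first of those higher in URE-LSK, and Itgb3 +80.7 kb (chr11:104688541-104688840) the first of those higher in URE-GMP. All are given on the plus strand, and none of the stretches shown held a match to the letters above. The PU.1 and AP-1 matches of Itgb3 +80.7 kb lay in the part of the region that is not shown.
Vwf +51.0 kb: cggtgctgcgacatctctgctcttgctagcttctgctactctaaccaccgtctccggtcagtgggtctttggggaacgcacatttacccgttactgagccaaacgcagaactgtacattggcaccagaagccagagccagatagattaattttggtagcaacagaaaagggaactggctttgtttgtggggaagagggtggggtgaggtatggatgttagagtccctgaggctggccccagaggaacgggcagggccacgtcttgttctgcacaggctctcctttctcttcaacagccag
Vwf +132.7 kb: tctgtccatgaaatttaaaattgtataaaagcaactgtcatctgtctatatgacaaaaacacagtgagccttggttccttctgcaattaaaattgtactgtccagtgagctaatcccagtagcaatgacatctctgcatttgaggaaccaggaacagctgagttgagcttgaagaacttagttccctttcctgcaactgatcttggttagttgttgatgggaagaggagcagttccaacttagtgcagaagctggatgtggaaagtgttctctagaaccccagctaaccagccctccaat
Gp1ba +19.6 kb: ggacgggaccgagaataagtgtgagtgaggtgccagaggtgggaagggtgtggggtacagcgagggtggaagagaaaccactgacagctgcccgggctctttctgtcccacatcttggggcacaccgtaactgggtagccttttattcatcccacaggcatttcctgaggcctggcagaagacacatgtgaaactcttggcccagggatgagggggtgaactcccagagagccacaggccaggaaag
Itgb3 +80.7 kb: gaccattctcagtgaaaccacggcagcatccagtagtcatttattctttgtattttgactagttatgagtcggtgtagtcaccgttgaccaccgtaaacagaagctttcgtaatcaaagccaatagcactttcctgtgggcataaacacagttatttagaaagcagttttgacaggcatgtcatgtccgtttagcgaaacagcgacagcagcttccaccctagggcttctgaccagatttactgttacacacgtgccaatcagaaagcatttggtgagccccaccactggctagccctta

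Over the whole regions, the RUNX letters were in 23 of the 93 (24.7%, against 17.3% of all 121336 regions), the GATA letters in 18 (19.4% against 15.7%) and the PU.1 letters in 13 (14% against 10.5%). The NF-E2 letters were in 6 (6.45% against 2.14%), the AP-1 core in 12 (12.9% against 11.5%) and the letters of other ETS factors in 3 (3.23% against 1.88%). The regions had a median length of 324 bp, against 322 bp over all regions. A match describes the sequence and does not show that a factor was bound.

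Library totals ranged from 23072701 to 62204826 counts, so 3 counts in a region stood for 0.05204 to 0.1255 CPM. Log2 CPM correlated at 0.953 to 0.988 (Pearson r across regions, which are not independent) within groups and at 0.585 to 0.87 between groups. In the 5 regions 12 to 17 kb upstream of the Spi1 start codon, where the deleted element lies, summed counts per library were 1376 to 2933 across WT-LSK and 2078 to 3755 across WT-GMP, against 164 to 205 across URE-LSK and 172 to 413 across URE-GMP, so every library matched its genotype label. All 5 GMP marker genes with a promoter region, among them Mpo and Elane, were called higher in GMP than in LSK in both genotypes. Of 6 LSK marker genes with a promoter region, 1 was lower in GMP in WT and 2 in URE, and none was higher, and no region lay at the starts of Fcgr3 and Ly6a. The promoter regions of 2 mast cell and basophil genes, Cpa3 and Mcpt8, were both called higher in URE-LSK and Mcpt8 alone in URE-GMP, with sums of 7.38 to 11.4 CPM across WT-LSK, 23.8 to 30.6 across URE-LSK, 9.9 to 13.1 across WT-GMP and 24.8 to 34.5 across URE-GMP, and no region lay at the starts of Ms4a2, Prss34 and Fcer1a. Of 4 monocyte and dendritic cell markers 3, among them Csf1r, were lower in URE in each cell type, with sums of 25.2 to 32.7 CPM in WT-LSK, 20.1 to 20.7 in URE-LSK, 46.4 to 63.0 in WT-GMP and 19.8 to 30.1 in URE-GMP. The 4 neutrophil markers summed to 12.6 to 15.4 CPM in WT-LSK, 6.57 to 7.43 in URE-LSK, 35.9 to 50.6 in WT-GMP and 61.9 to 70.8 in URE-GMP. Of these 4, 1 was called higher and 2 lower in URE-LSK, and 1 higher and none lower in URE-GMP. Of the B and T lineage markers Ebf1 was not called, Lck was higher in URE-GMP (1.39), and the other 5 had no promoter region. The part of other cell types in the results was not tested. These are bulk samples, in which fewer cells with an open region and a less open region per cell cannot be told apart.

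In LSK, 27 of the 93 regions were called between the genotypes, with 7 higher in URE (7.53%) and 20 lower (21.5%). Of all regions tested in this comparison, 37.5% were called, 13.6% higher and 23.9% lower, so the share of lower regions was near the background and that of higher regions was below it. In GMP, 4 regions were higher in URE (4.3%) and 21 lower (22.6%), where 39.7% of all regions were called, 15.6% higher and 24.1% lower. The median log2 fold change of the 93 regions was 0.15 in LSK and -0.04 in GMP, against 0.14 and 0.06 over all regions. By call, 16 regions were lower in both cell types, 4 were lower in LSK alone and 5 in GMP alone, 2 were higher in both, 5 were higher in LSK alone, 2 in GMP alone, and 59 were called in neither. The share of all regions in each joint class is not given, so these counts do not show whether sharing is particular to these genes. How the calls split moved with the scaling. Of the calls, 74.1% were lower in LSK and 84.0% in GMP, but 51.9% and 63.6% with loess offsets against abundance (13 higher and 14 lower in LSK, 8 and 14 in GMP) and 45.7% and 55.6% with GC content offsets (19 and 16, 12 and 15). GC content offsets moved the median of all regions to 0.28 in LSK and 0.21 in GMP. They moved the share of all regions called higher to 22.1% and 22.2%, beside 20.4% and 12.9% of the 93. The share of all regions called lower was then 20.4% in LSK and 19.8% in GMP. With loess offsets the share of all regions called higher was 21.7% in LSK and 21.9% in GMP, and the share lower 18.5% and 17.1%. The split of all regions thus moved with the scaling too.

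The calls were uneven between the genes. Vwf had 11 of its 19 regions lower in URE-LSK and 10 in URE-GMP, 10 of them in both, and 1 higher in LSK. Pf4 had 4 of 10 lower in each cell type and none higher, with 2 shared. Itgb3 was mixed, with 3 of 25 regions higher and 3 lower in LSK, and 3 higher and 4 lower in GMP. Gp1ba had 2 of 10 higher and 2 lower in LSK, and 1 of each in GMP. Itga2b had no call in LSK and 2 of 11 lower in GMP, Nfe2 had 1 of 9 higher in LSK and none in GMP, and Gp9 had no call among its 9 regions in either comparison. Of the 77 distal regions 20 (26%) were lower in each cell type, where 23.9% of all regions, promoters included, were lower in LSK and 24.1% in GMP. Of the 7 promoters none was called in LSK and 1, that of Pf4, was lower in GMP. The share of all distal regions is not given, so these counts do not show a difference particular to these genes. At an unadjusted p under 0.05, 3 promoters and 6 Itga2b regions were higher in LSK and none of either was lower. In GMP 1 promoter was higher and 2 lower, and 2 Itga2b regions were higher and 2 lower. Of the Gp9 regions, 2 were higher and 1 lower in LSK, and 4 and 2 in GMP. The share of all regions at this unadjusted p is not given. DESeq2 at the same thresholds also called none of the Gp9 regions and none of Itga2b in LSK, whereas 1 Gp9 region was higher in GMP with RLE size factors, loess offsets or the replicate number as a block, and 2 with GC content offsets. With GC content offsets 2 Itga2b regions were higher in LSK (1 with loess offsets) and Nfe2 had 4 higher in LSK and 2 in GMP, while a test against the fold threshold itself (glmTreat) called none for Nfe2. The Itga2b regions lower in GMP were 1 with loess offsets, glmTreat or only the groups compared and 0 at a mean of at least 2 CPM. With GC content offsets Gp1ba had 2 higher and none lower in GMP, and Vwf had 3 higher in LSK and 1 in GMP. Without WT-GMP replicate 1 a Gp9 region was called in each direction in GMP, and without URE-GMP replicate 3 one was higher. Without WT-GMP replicate 3, URE-GMP replicate 1 or URE-GMP replicate 2, 1 Itga2b region rather than 2 was lower in GMP. Gp1ba had 3 higher and 1 lower in LSK without URE-LSK replicate 2, and in GMP 2 lower without WT-GMP replicate 2 and 2 higher without WT-GMP replicate 3 or URE-GMP replicate 1. Of the 19118 regions within 500 bp of any start site, 3.83% were higher and 7.68% lower in LSK, and 4.79% and 8.25% in GMP.

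**Figure D1:**
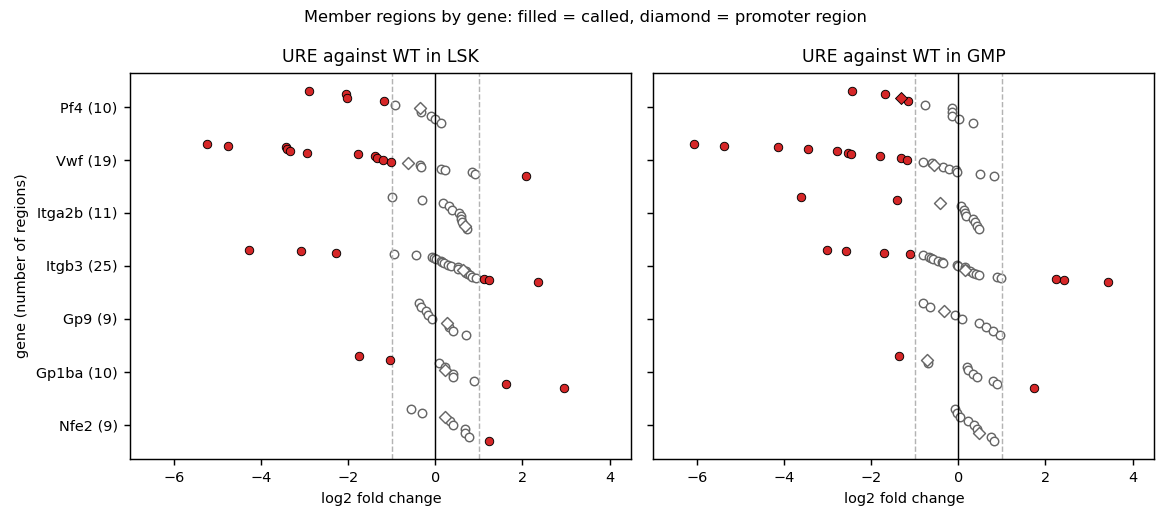
Log2 fold change of URE against WT (x axis) of each of the 93 regions, grouped by gene (y axis, number of regions in parentheses), in LSK (left) and in GMP (right). Filled points passed both thresholds, diamonds are promoters and dashed lines mark a log2 fold change of 1 in either direction. Vwf holds 11 filled points on the lower side in LSK and 10 in GMP, and Gp9 holds none.

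Vwf encodes the large adhesive protein that platelets and endothelium store and that tethers platelets to the vessel wall. The gene lies on chr6:125546774-125686679, plus strand. Its most strongly tested losses were inside introns and exons of the gene. Vwf +51.0 kb (chr6:125603770-125604198), at a coding exon, had 15.2, 15.5 and 15.4 CPM across WT-LSK libraries 1, 2 and 3, 1.02, 1.79 and 1.52 across URE-LSK, 18.9, 13.2 and 15.2 across WT-GMP, and 2.07, 3.0 and 1.72 across URE-GMP. Every URE library lay below every WT library, and LSK and GMP of the same genotype had similar levels. Regions picked by smallest p in a genotype comparison had to show no overlap there. Lack of overlap in that comparison is thus no added support, here or at the regions below picked in this way. The change was -3.42 (SE 0.24, adjusted p = 1.55e-08, edgeR) in LSK and -2.78 (SE 0.23, adjusted p = 1.15e-07) in GMP.

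A pair of intronic regions of Vwf had almost no counts without the enhancer. Vwf +34.3 kb (chr6:125587139-125587427), which holds the GATA letters, had 2.52, 2.45 and 3.5 CPM across WT-LSK and 2.05, 1.91 and 2.35 across WT-GMP, against 0.0238 to 0.112 across URE-LSK (1 to 4 counts a library) and 0.0969 to 0.129 across URE-GMP (4 to 7 counts). It fell by 5.24 (SE 0.39, adjusted p = 2.46e-08, edgeR) on the log2 scale in LSK and by 4.14 (SE 0.35, adjusted p = 1.81e-07) in GMP. Vwf +131.8 kb (chr6:125684646-125684898) had 1.42, 1.67 and 1.73 CPM across WT-LSK and 2.3, 2.66 and 2.28 across WT-GMP, against 0.0 to 0.112 across URE-LSK and 0.0215 to 0.121 across URE-GMP, with at most 5 counts in any URE library. Its changes were -4.76 (SE 0.53) and -5.37 (SE 0.50). Both regions were at the limit of detection in URE, so the exact size of these changes rests on few counts.

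Vwf +132.7 kb (chr6:125685485-125685789), near the 3′ end of the gene, was the only Vwf region that WT cells had called higher in GMP than in LSK. It had 0.918, 1.47 and 1.15 CPM across WT-LSK and 5.31, 5.35 and 3.76 across WT-GMP, against 0.0854 to 0.167 across URE-LSK and 0.0431 to 0.104 across URE-GMP. All WT-GMP libraries lay above all WT-LSK libraries, whereas in URE both cell types were near the level of 3 counts. The WT step was 2.04 (adjusted p = 1.47e-05, edgeR), the genotype change was -3.33 (SE 0.38, adjusted p = 2e-06) in LSK and -6.07 (SE 0.38, adjusted p = 1.44e-08) in GMP, and these differed by -2.75 (SE 0.63, adjusted p = 0.00741). Vwf +87.7 kb, with the PU.1 letters, had 2.41, 2.9 and 3.52 CPM across WT-LSK, 0.192 to 0.363 across URE-LSK, 0.669, 0.944 and 1.68 across WT-GMP and 0.173 to 0.242 across URE-GMP, and changed by -3.40 in LSK and by -2.46 in GMP. From Vwf +87.7 kb onwards the nearest annotated start was that of the neighbouring gene Ano2.

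The other Vwf regions called lower in both cell types were +1.8 kb (-1.77 and -1.79), +42.0 kb (-1.38 and -1.31), +51.7 kb (-1.20 and -1.17), +125.7 kb (-1.33 and -2.54) and +140.0 kb (-2.94 and -3.46). Vwf +50.5 kb was lower in LSK alone (-1.02), with -0.61 in GMP. The most abundant Vwf region, the intronic +20 kb (chr6:125572351-125573586) with the NF-E2 letters, had 46.6, 51.1 and 49.7 CPM across WT-LSK, 40.5, 42.9 and 34.3 across URE-LSK, 53.5, 42.5 and 47.4 across WT-GMP and 25.6, 27.3 and 29.0 across URE-GMP. URE libraries lay below WT libraries in both cell types. The changes of -0.32 (adjusted p = 0.0121, edgeR) and -0.80 (adjusted p = 6.43e-06) stayed under the fold threshold. With GC content offsets the LSK value reversed to 0.0726. A region past the end of the gene was called higher in URE-LSK. Vwf +148.5 kb had 0.709, 0.693 and 0.784 CPM across WT-LSK and 3.19, 2.37 and 3.82 across URE-LSK (2.09, SE 0.29, adjusted p = 1.57e-05), with 0.336 to 0.46 across WT-GMP and 0.451 to 0.872 across URE-GMP.

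**Figure D2:**
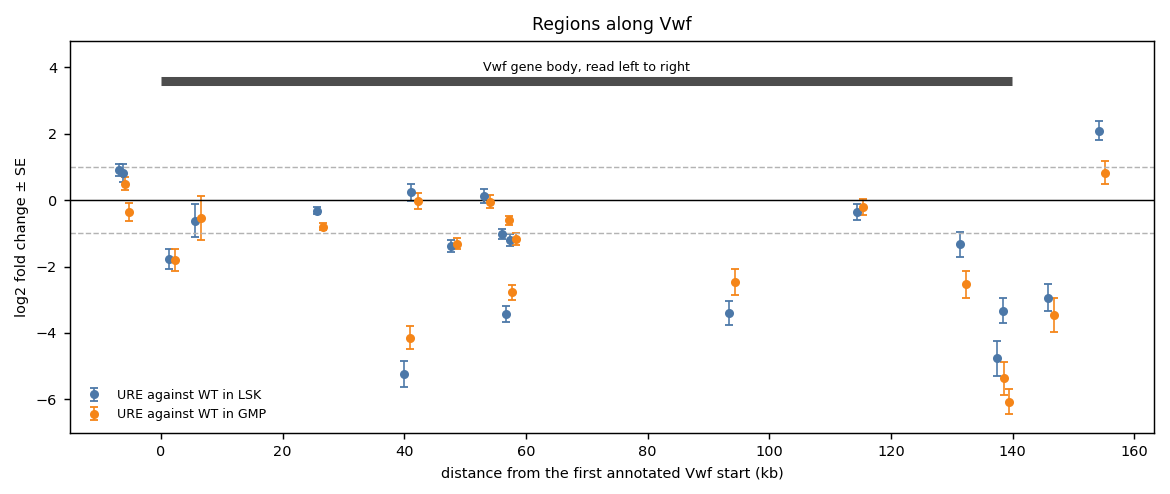
Log2 fold change of URE against WT with its SE (y axis) for the 19 Vwf regions by distance from the first annotated Vwf start in kb (x axis), in LSK and in GMP (points of a region are set slightly apart). This first start lies before the one from which most regions are named, so axis positions are larger than the distances in the names. Regions with losses lie along the whole gene body between regions with changes near 0, and the lowest points, at -6.07 in GMP and -5.24 in LSK, are intronic.

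Summed over its 19 regions, Vwf had 125, 131 and 133 CPM across WT-LSK, 75.6, 81.3 and 70.9 across URE-LSK, 134, 117 and 124 across WT-GMP and 60.9, 61.8 and 61.2 in URE-GMP. The URE mean was 0.585 of the WT mean in LSK and 0.491 in GMP, with no overlap between genotypes. The number of lower Vwf regions was 8 to 12 in each cell type under every scaling, threshold and left-out library tried. Among regions with a mean of at least 2 CPM it was 4 in LSK and 3 in GMP, so most of the lower regions had a mean under 2 CPM.

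Pf4 encodes platelet factor 4, a granule chemokine, and lies in a cluster of chemokine genes (chr5:90772435-90773383, plus strand). Its promoter (chr5:90771923-90772750) had 17.2, 13.6 and 21.5 CPM across WT-LSK, 12.3, 15.9 and 13.1 across URE-LSK, 10.0, 7.76 and 11 across WT-GMP and 2.88, 3.85 and 4.77 across URE-GMP. The LSK genotypes overlapped (-0.35, SE 0.20, adjusted p = 0.153, edgeR), whereas every URE-GMP library lay below every WT-GMP library (-1.32, SE 0.21, adjusted p = 5.94e-05). With GC content offsets the GMP change was -0.98 and no longer called. The difference between the cell types was -0.98 (SE 0.29, adjusted p = 0.0299), which missed the fold threshold, and it was -1.0 (adjusted p = 0.0138) and called with the replicate number as a block. It was also called without WT-LSK replicate 3 (-1.10), URE-LSK replicate 1 (-1.05) or 3 (-1.01), WT-GMP replicate 2 (-1.05) or URE-GMP replicate 3 (-1.16).

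Just upstream of the promoter, Pf4 -0.8 kb, with the NF-E2 letters, fell in both cell types. It had 3.86, 3.06 and 3.2 CPM across WT-LSK, 0.738, 1.14 and 0.641 across URE-LSK, 4.56, 3.76 and 4.26 across WT-GMP and 1.14, 1.87 and 0.848 across URE-GMP. Genotypes did not overlap, with changes of -2.02 (SE 0.29, adjusted p = 2.29e-05, edgeR) and -1.68 (SE 0.28, adjusted p = 7.78e-05). Pf4 +17.3 kb (chr5:90789278-90790271), next to the chemokine gene Cxcl3, had 13.7, 14 and 13.2 CPM across WT-LSK, 4.45, 7.09 and 6.43 across URE-LSK, 26.0, 20.3 and 18.3 across WT-GMP and 21.3, 24.3 and 19.3 across URE-GMP. The loss was in LSK (-1.19, SE 0.17, adjusted p = 2.2e-05), the GMP value was 0.01, and between the cell types the difference was 1.20 (SE 0.24, adjusted p = 0.00287). Pf4 -14.6 kb was lower in LSK (-2.05) and Pf4 +3.3 kb in GMP (-1.15). Pf4 +11.4 kb, called lower in both, had 1, 2 and 0 counts in URE-LSK, where the counts of WT-LSK were 8.51 times as high relative to library size (95% interval 2.57 to 44.3, counting error only). With loess offsets 2 rather than 4 Pf4 regions were lower in each cell type, and with GC content offsets or glmTreat 2 in GMP.

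Itga2b and Itgb3 encode the 2 chains of the platelet fibrinogen receptor, CD41 and CD61. Itga2b (chr11:102453297-102470122, minus strand) had its promoter region at chr11:102469751-102470732, with 31.1, 28.4 and 36.7 CPM across WT-LSK, 54.1, 50 and 51.3 across URE-LSK, 14.8, 14.1 and 26.9 across WT-GMP and 12.2, 10.7 and 19.0 across URE-GMP. All URE-LSK libraries lay above all WT-LSK libraries, while the GMP genotypes overlapped. The LSK change of 0.69 (SE 0.22, adjusted p = 0.0133, edgeR) passed the adjusted p but not the fold threshold, and the GMP change was -0.42 (adjusted p = 0.112). The difference between the cell types, -1.11 (SE 0.31, adjusted p = 0.0227), was called. It was not called without WT-GMP replicate 3 (-0.66, adjusted p = 0.0894), WT-LSK replicate 1 (-1.04) or 2 (-0.98), URE-LSK replicate 1 (-1.08), or URE-GMP replicate 1 (-1.03) or 2 (-0.95), and with the replicate number as a block it was -1.13 (adjusted p = 0.00173).

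Most other Itga2b regions had values above 0 in LSK. Of the 11, 6 passed the adjusted p alone in LSK, all higher in URE, where 27.9% of all regions were higher by that criterion. The median over the 11 was 0.55 in LSK and 0.16 in GMP. The most abundant one, Itga2b +2.6 kb at a coding exon, gave 0.58 (adjusted p = 9.19e-05, edgeR) in LSK and 0.05 in GMP. Summed over 10 regions without the promoter of its neighbour Fam171a2, Itga2b had 127, 115 and 131 CPM across WT-LSK and 195, 186 and 174 across URE-LSK, a ratio of 1.49 with no overlap, and 1.04 with overlap in GMP. Both regions lower in URE-GMP held the PU.1 letters and were low in signal, Itga2b +29.5 kb (-3.61, adjusted p = 1.89e-05) and Itga2b -10.4 kb (-1.40, adjusted p = 0.0233).

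The promoter of Itgb3 (gene at chr11:104608000-104670476, plus strand, region at chr11:104607623-104608313) had 20, 15.9 and 15.1 CPM across WT-LSK, 30, 28.5 and 20.4 across URE-LSK, 20.5, 11.6 and 12.7 across WT-GMP and 17.2, 15.8 and 17.0 across URE-GMP. The URE-LSK libraries lay above the WT-LSK libraries, with a change under the fold threshold (0.63, SE 0.19, adjusted p = 0.0107, edgeR), and the GMP value was 0.16. Strong changes of both signs lay elsewhere in the gene. Itgb3 +29.3 kb (chr11:104637052-104637516), at a coding exon and with the RUNX letters, had 17.3, 15.1 and 13.3 CPM across WT-LSK, 0.381, 1.37 and 0.641 across URE-LSK, 7.4, 6.36 and 7.38 across WT-GMP and 1.77, 3.49 and 1.11 across URE-GMP. Genotypes did not overlap, and the step from LSK to GMP had opposite signs, -1.11 in WT and 1.46 in URE, both called. The genotype change was -4.28 (SE 0.40, adjusted p = 2.64e-07) in LSK and -1.71 (SE 0.36, adjusted p = 0.000625) in GMP, and these differed by 2.57 (SE 0.52, adjusted p = 0.00354). The intronic Itgb3 +20.6 kb (-3.09 and -2.57) and Itgb3 +49.9 kb (-2.28 and -3.02) were also lower in both cell types.

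At and past the 3′ end of Itgb3, regions gained signal in URE-GMP. Itgb3 +80.7 kb (chr11:104688282-104689101), whose nearest annotated start was that of Gm11639, had 0.472, 0.204 and 0.342 CPM across WT-LSK, 0.571, 0.502 and 1.17 across URE-LSK, 2.72, 1.41 and 0.899 across WT-GMP and 16.4, 16.1 and 19.2 across URE-GMP. The URE-GMP libraries stood apart from all the others, with a change of 3.43 (SE 0.34, adjusted p = 7.39e-07, edgeR) in GMP and a difference between the cell types of 2.32 (SE 0.58, adjusted p = 0.0122). The LSK change was 1.11 (SE 0.45, adjusted p = 0.0454), and it was not called without URE-LSK replicate 3 (0.61), WT-LSK replicate 2 (0.86) or 3 (1.02), WT-GMP replicate 2 (1.05) or URE-GMP replicate 1 (1.11, adjusted p = 0.056). Itgb3 +72.4 kb, at the promoter of Gm11662, had 2.42 in GMP and 0.75 in LSK, the latter -0.165 without URE-LSK replicate 3. Itgb3 +62.4 kb, at the last exon, had 1, 3 and 3 counts in WT-LSK and 10, 5 and 28 across URE-LSK, 5.54 times as many relative to library size (95% interval 2.47 to 14.6, counting error only), and without URE-LSK replicate 3 its LSK change was 1.56 and not called. In GMP it had 1.05, 1.28 and 0.599 CPM in WT and 4.95, 4.81 and 4.14 in URE, a change of 2.25. Over the 25 Itgb3 regions the counts of calls moved with the settings, with 6 higher and 2 lower in LSK and 4 higher and 1 lower in GMP with loess offsets, and 7 and 5 higher with GC content offsets. Without WT-LSK replicate 3 or URE-LSK replicate 3 only 1 was higher in LSK, and without WT-GMP replicate 3, 5 were higher in GMP.

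**Figure D3:**
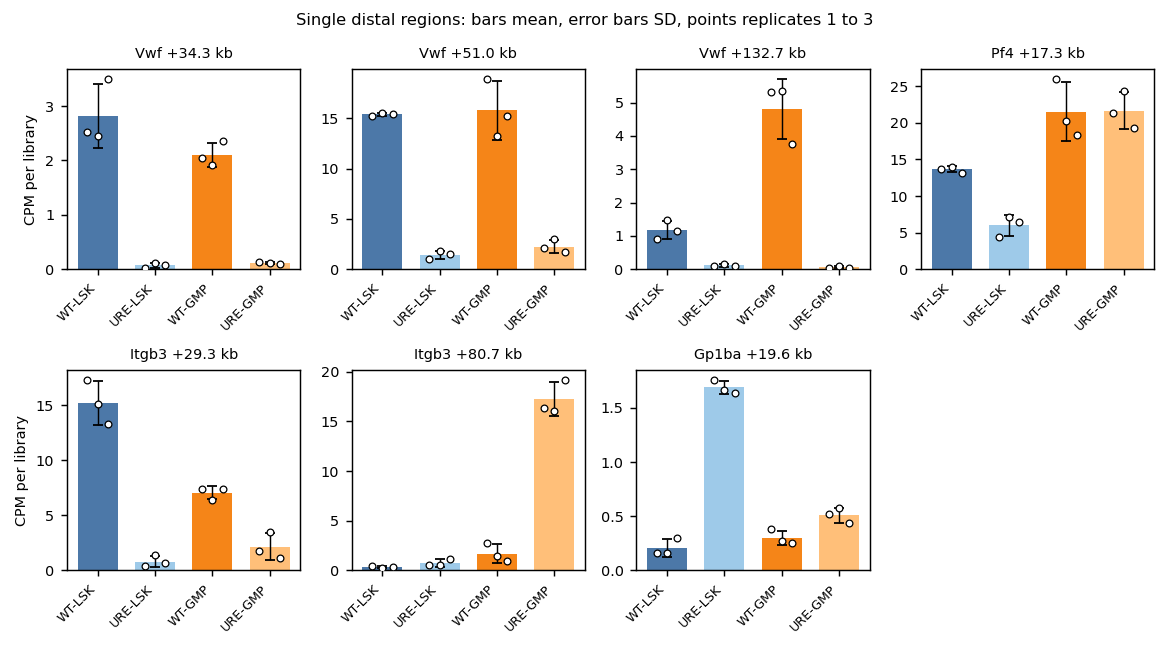
CPM per library (y axis) of 7 distal regions in the 4 groups (x axis); bars are means, error bars SD and points the 3 replicates. At Vwf +51.0 kb the URE bars are low in both cell types, at Itgb3 +80.7 kb only URE-GMP is high (16.1 to 19.2 CPM), and at Gp1ba +19.6 kb only URE-LSK (1.64 to 1.76 CPM).

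Gp1ba and Gp9 encode subunits of the platelet receptor for von Willebrand factor. The Gp1ba promoter (gene at chr11:70639122-70642036, plus strand, region at chr11:70638592-70639263) had 15.2, 16.0 and 22.2 CPM across WT-LSK, 20.8, 23.4 and 18.8 across URE-LSK, 4.18, 3.94 and 11.7 across WT-GMP and 3.87, 3.04 and 5.18 across URE-GMP. Genotypes overlapped in both cell types, at 0.23 in LSK and -0.73 (adjusted p = 0.065, edgeR) in GMP. The GMP value rested on single libraries, since it was -0.000157 without WT-GMP replicate 3, and -1.03 and called without WT-GMP replicate 2. The Gp9 promoter (gene at chr6:87778072-87779768, plus strand, region at chr6:87777800-87778426) had 16.2, 14.2 and 19.0 CPM across WT-LSK, 20.9, 21.2 and 17.7 across URE-LSK, 6.57, 4.76 and 8.41 across WT-GMP and 5.08, 4.37 and 6.2 across URE-GMP. Here too the genotypes overlapped, with values of 0.27 and -0.34.

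The called regions around Gp1ba lay towards its neighbours. Gp1ba +19.6 kb (chr11:70658645-70658891), whose nearest start was that of the enolase gene Eno3, had 0.157, 0.163 and 0.302 CPM across WT-LSK, 1.76, 1.67 and 1.64 across URE-LSK, 0.377, 0.273 and 0.254 across WT-GMP and 0.517, 0.572 and 0.436 across URE-GMP. URE-LSK stood above all other groups, with a change of 2.95 (SE 0.35, adjusted p = 2.58e-06, edgeR) in LSK, 0.80 (adjusted p = 0.0601) in GMP and a difference between the cell types of -2.15 (SE 0.50, adjusted p = 0.00859). Gp1ba -16.7 kb, with GATA and RUNX letters, was higher in LSK (1.62, adjusted p = 5.77e-05) with 0.89 in GMP, which was 1.19 and called without WT-GMP replicate 3 and 1.0 and called without URE-GMP replicate 1. Gp1ba +13 kb, whose nearest start was that of the actin regulator Pfn1, was higher in GMP (1.73, adjusted p = 1.63e-05) with 0.88 in LSK, which was 1.0 and called without URE-LSK replicate 2. Gp1ba +9.7 kb was lower in both cell types (-1.76 and -1.37) and Gp1ba +11.5 kb in LSK (-1.04), and with loess offsets neither cell type had a lower Gp1ba region. Among the Gp9 regions, the most abundant distal one, Gp9 +11.3 kb with the PU.1 letters, gave -0.34 in LSK and 0.48 in GMP, and the difference of 0.83 (adjusted p = 0.0034) was under the fold threshold.

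Nfe2, the gene of the transcription factor for late megakaryocyte genes (chr15:103248212-103258403, minus strand), had its promoter region at chr15:103254511-103255786, with 31.2, 31.2 and 34.5 CPM across WT-LSK, 42.9, 34.0 and 35.9 across URE-LSK, 26.3, 22.1 and 26.4 across WT-GMP and 33.1, 35.9 and 35.2 across URE-GMP. The LSK genotypes overlapped (0.22, adjusted p = 0.0799, edgeR) and the URE-GMP libraries lay above WT-GMP with a small change (0.48, SE 0.10, adjusted p = 0.000781). The intronic Nfe2 -1.2 kb (chr15:103252657-103253102) rose in LSK. It had 4.38, 4.24 and 5.07 CPM across WT-LSK, 13.2, 8.37 and 10.9 across URE-LSK, 13.8, 13.9 and 13.8 across WT-GMP and 23.9, 24.1 and 25.6 across URE-GMP. URE lay above WT in both cell types, called in LSK (1.24, SE 0.15, adjusted p = 4.63e-06) and under the fold threshold in GMP (0.83, adjusted p = 0.000149). Nfe2 -2.9 kb, the most abundant distal region of all 7 genes, had 70.4, 76.5 and 73.1 CPM across WT-LSK, 91.5 to 104 across URE-LSK, 53.8 to 80.5 across WT-GMP and 81.0 to 93.4 across URE-GMP, with values of 0.40 and 0.35. Of the 9 Nfe2 regions 6 passed the adjusted p alone in each cell type, all higher in URE, against 27.9% of all regions higher by this criterion in LSK and 29.6% in GMP. The size of the Nfe2 rise moved with the scaling. The median over the 9 regions was 0.40 in LSK and 0.35 in GMP. It was 0.11 and 0.30 with loess offsets, 0.22 and 0.205 with TMM on promoter regions, and 0.68 and 0.56 with GC content offsets. Over all alternatives Nfe2 -2.9 kb ranged from 0.11 to 0.684 in LSK and from 0.098 to 0.566 in GMP.

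Summed over regions without those at other genes' promoters, the 7 genes took different courses. Vwf and Pf4 were below WT in both cell types, Pf4 at 0.627 of the WT mean in LSK and 0.746 in GMP. Nfe2 was above WT in both, at 1.27 and 1.30, with no overlap. Gp1ba was above WT in LSK (1.30) and overlapped in GMP (1.13), Gp9 overlapped in LSK (1.06) and was above in GMP (1.21), and Itgb3 overlapped in both (1.13 and 1.05). With 3 libraries against 3 an exact two-sided permutation test cannot go below 0.1, so these sums are given without a test. They were taken at the TMM scaling alone, and their ratios under the other scalings are not given.

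**Figure D4:**
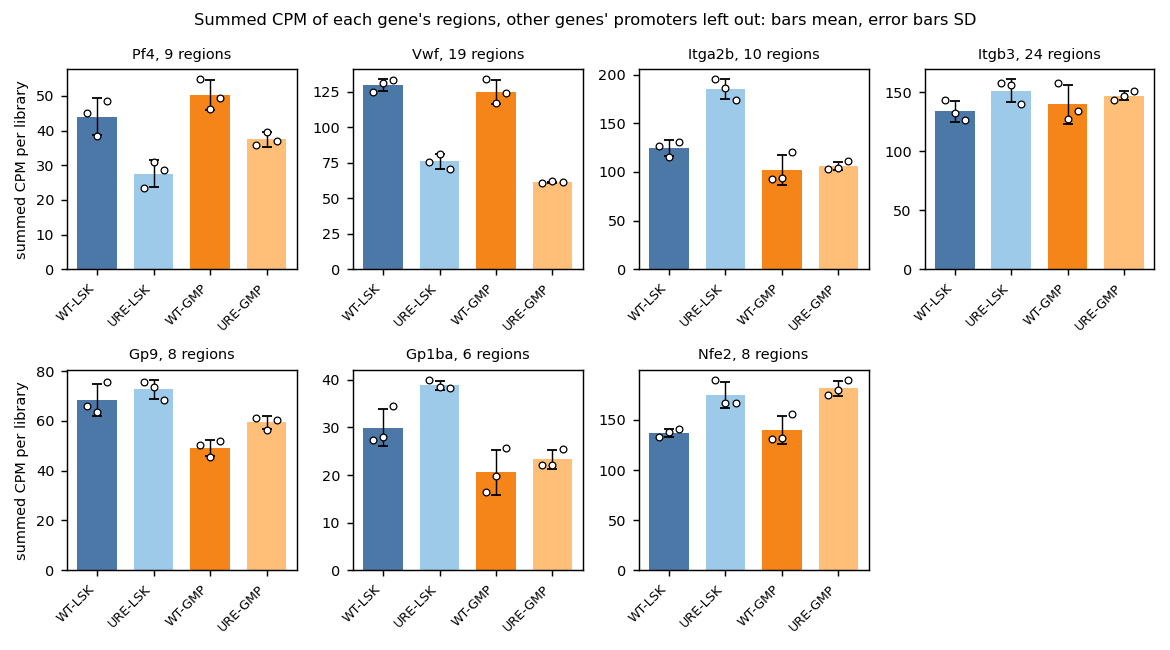
Summed CPM per library (y axis) of each gene's regions, leaving out regions at promoters of other genes, in the 4 groups (x axis); bars are means, error bars SD and points the 3 replicates. Vwf has 129.7 CPM on average in WT-LSK and 75.91 in URE-LSK, while Itga2b has 124.3 and 184.6.

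GMP arise from cells of the LSK gate and give rise to granulocytes and monocytes, not to platelets. In WT, 14 of the 93 regions were higher in GMP (15.1%) and 13 lower (14%), where 37.8% of all regions were called, 21% higher and 16.8% lower. In URE, 14 were higher (15.1%) and 18 lower (19.4%), where 49.1% of all regions were called, 27.6% higher and 21.6% lower. Both steps share libraries with the genotype comparisons. The joint calls that follow are again given without the share of all regions. By call, 9 regions were higher and 9 lower in both genotypes, 5 higher and 3 lower in WT alone, 4 higher and 9 lower in URE alone, and 1, Itgb3 +29.3 kb, was lower in WT and higher in URE.

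Along this step, no promoter of the 7 genes was called higher in GMP. In WT, those of Vwf (-2.17, SE 0.57, adjusted p = 0.00398, edgeR), Gp1ba (-1.42, SE 0.32, adjusted p = 0.00144) and Gp9 (-1.33, SE 0.20, adjusted p = 3.41e-05) were lower in GMP. In URE, those of Gp1ba (-2.39, SE 0.33, adjusted p = 9.71e-06), Vwf (-2.10, SE 0.59, adjusted p = 0.00502), Gp9 (-1.94, SE 0.20, adjusted p = 3.65e-07), Itga2b (-1.90, SE 0.23, adjusted p = 1.86e-06) and Pf4 (-1.85, adjusted p = 1.22e-06) were lower. In WT the Itga2b value was -0.78 (adjusted p = 0.00676) and that of Pf4 -0.87 (adjusted p = 0.00178), both under the fold threshold. Without WT-GMP replicate 3 both were called, at -1.26 and -1.10, and that of Pf4 also without WT-LSK replicate 2 (-1.10). Leaving out the same WT-GMP library moved the WT values of Gp1ba to -2.25 and of Vwf to -3.08, and leaving out URE-LSK replicate 2 moved the URE value of Vwf to -1.38. Itgb3 (-0.19 in WT, -0.66 in URE) and Nfe2 (-0.38 and -0.11) were not called. Of the 19118 start-site regions, 6.2% were higher and 7.29% lower in WT, and 8.54% and 11.1% in URE.

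The Vwf promoter (region at chr6:125552830-125553037) was the faintest of the 7. It had 0.945, 0.938 and 1.89 CPM across WT-LSK, 0.5, 1.54 and 0.513 across URE-LSK, 0.0418, 0.231 and 0.507 across WT-GMP and 0.194, 0.191 and 0.194 across URE-GMP. Genotypes overlapped in both cell types, at -0.62 (adjusted p = 0.308, edgeR) in LSK and -0.55 (adjusted p = 0.488) in GMP. Without URE-LSK replicate 2 the LSK value was -1.34 and called, and without WT-GMP replicate 3 the GMP value was 0.26. Per kilobase of region, the mean over the 12 libraries was 3.076 CPM at the Vwf promoter, against 13.49 to 29.63 at the other 6. WT-GMP replicate 3 was the highest of its group at 6 of the 7 promoters, and so was WT-LSK replicate 3.

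**Figure D5:**
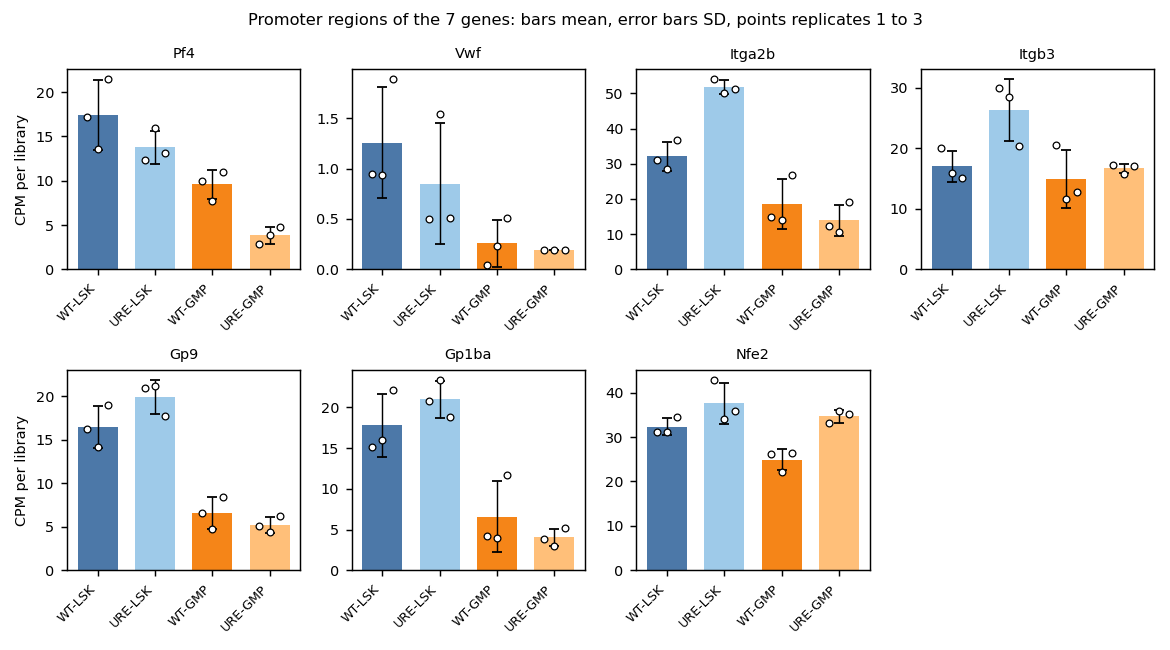
CPM per library (y axis) of the promoter region of each of the 7 genes in the 4 groups (x axis); bars are means, error bars SD and points the 3 replicates. The GMP bars of Gp9, Gp1ba and Vwf are below the LSK bars in both genotypes, and Pf4 is lowest in URE-GMP, at 2.88 to 4.77 CPM.

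Itgb3 held 7 of the 14 regions called higher in WT-GMP. Itgb3 +1.4 kb, an intronic region with GATA and RUNX letters, had a mean of 5.738 CPM in LSK and 26.08 in GMP of WT mice (2.18), and in URE mice 4.23 and 16.9 (2.0). Both Itgb3 +80.7 kb (2.18 in WT and 4.49 in URE) and Itgb3 +72.4 kb (2.82 and 4.49) rose in each genotype. Itgb3 +39.5 kb opened in WT (1.18), while Itgb3 +38.8 kb, less than a kilobase away, closed in both genotypes (-1.13 and -2.08) and Itgb3 +59.6 kb closed in WT (-1.35). Gp9 +12 kb (1.34 and 2.66) and Nfe2 -1.2 kb (1.59 and 1.18) rose in both.

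The genotype effect differed between GMP and LSK in 8 regions, with 3 more positive in GMP (3.23%) and 5 more negative (5.38%), where 14% of all regions were called, 8.96% higher and 5.03% lower. The more positive ones were Itgb3 +29.3 kb, Itgb3 +80.7 kb and Pf4 +17.3 kb. The more negative ones were Vwf +132.7 kb, Gp1ba +19.6 kb, the Itga2b promoter, Itgb3 -8.2 kb (-1.37, SE 0.43, adjusted p = 0.0394, edgeR, with 0.70 in LSK and -0.67 in GMP) and Vwf -5.8 kb (-1.18, SE 0.38, adjusted p = 0.044, with 0.83 and -0.35). The last 2 were chosen after their values were seen. Itgb3 -8.2 kb was not called without WT-LSK replicate 2 or 3, WT-GMP replicate 1, or URE-GMP replicate 1 or 2, nor Vwf -5.8 kb without any 1 of the WT-LSK or WT-GMP libraries, URE-LSK replicate 3 or URE-GMP replicate 2, and neither with TMM on promoter regions. With the replicate number as a block, 4 regions were more positive and 9 more negative. Without WT-GMP replicate 1, 5 were more positive and 3 more negative, and without WT-LSK replicate 1, WT-GMP replicate 3, URE-GMP replicate 1 or URE-GMP replicate 2, 3 were more negative, and 2 without WT-LSK replicate 2.

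Regions with and without the PU.1 letters were compared by their calls. Of the 13 with them, 4 were lower in URE-LSK and 6 in URE-GMP, and of the 80 without them 16 and 15 were lower. These were 30.8% and 46.2% with the letters and 20% and 18.8% without them, where 23.9% and 24.1% of all regions were lower. Of all 12706 regions that held the letters, 51.9% were lower in LSK and 47.2% in GMP. Higher in URE were 1 region with the letters in each cell type, and 6 in LSK and 3 in GMP without them. Of all 12706 regions with the letters, 3.3% were higher in LSK and 4.45% in GMP. Those lower in URE-GMP with the letters included the Pf4 promoter, Vwf +42.0 kb, Vwf +87.7 kb and the Itga2b regions called lower there. Vwf +51.0 kb and Itgb3 +29.3 kb, lower in both cell types, held no PU.1 match.

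The promoters of other platelet genes were read in the same way. Of 30 further genes (surface receptors, granule and secreted proteins, enzymes and cytoskeleton, and the small Maf partners of NF-E2), 26 had a region at a start site, and none lay at those of Gp6, Clec1b, Ppbp and Mafg. In LSK, 3 were lower in URE, the ADP receptor P2ry12 (-2.42), P-selectin Selp (-1.61) and the clotting factor gene F13a1 (-1.05), and none was higher. In GMP, 4 were lower, P2ry12 (-3.85), Selp (-3.35), the guanylate cyclase subunit Gucy1b1 (-1.18) and Gp5 (-1.03), and 3 of the granule and secreted group were higher, Mmrn1 (1.88), Clu (1.44) and Serpine2 (1.07). In all, 11.5% of the 26 were called in LSK and 26.9% in GMP, where of all start-site regions 3.83% were higher and 7.68% lower in LSK, and 4.79% and 8.25% in GMP. The medians over the 26 were 0.25 in LSK and 0.04 in GMP, against 0.22 and 0.16 over all start-site regions. Along the step, 8 were lower in GMP and none higher in WT, and 11 were lower and 1, F13a1 (1.86), higher in URE. In WT 30.8% of the 26 were called, all lower, against 7.29% of all start-site regions lower and 6.2% higher. In URE 46.2% were called in either direction, F13a1 included, against 11.1% lower and 8.54% higher.

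Over the 297 regions within 20 kb of these 30 genes, 33 were higher in URE-LSK (11.1%) and 85 lower (28.6%), and 46 were higher in URE-GMP (15.5%) and 82 lower (27.6%), beside the background shares of 13.6% and 23.9% in LSK and of 15.6% and 24.1% in GMP.

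The promoters of other protein-coding genes whose log2 CPM followed the 7 most closely over the 12 libraries were found among 14185 genes, as a description. They were Fam110b, Galnt14 and Emcn for Pf4 (Pearson r 0.974, 0.974 and 0.972), and Plscr2, Upk1b and Mrap2 for Itga2b (0.988, 0.973 and 0.971). For Itgb3 they were Hsph1, Phf20l1 and Cradd (0.974, 0.971 and 0.967), and for Vwf Hrasls5, Tmem204 and Agtr1a (0.94, 0.939 and 0.937). For Gp9 they were Gulp1, Scn11a and L1td1 (0.995, 0.994 and 0.989), for Gp1ba Tmem63c, Epb42 and Lrat (0.988, 0.988 and 0.979), and for Nfe2 Susd1, Sept4 and H2afy2 (0.962, 0.95 and 0.942). The 12 points share 4 groups, so they are not independent conditions.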

How the data were processed

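ATAC-seq was made by the OmniATAC protocol on sorted LSK and GMP cells of WT and URE mice, 3 libraries for each of 4 groups, grouped by the labels, which do not say whether libraries of a group came from separate mice (the study's methods give 3 mice per genotype and cell type). The authors deposited raw counts, which are whole numbers with no normalization. Following the study's methods, reads had been aligned with bowtie2 to GRCm38, duplicates and reads off the primary chromosomes were removed, and peaks were called per group with Genrich. The submitters' processing notes also name cutadapt, bedtools and featureCounts, without saying in the sources used here what each did. A count may be a fragment or a read end, since the sources used here do not say. Starts were taken as 0-based and are printed 1-based. Peaks called per group favour regions open in at least 1 group, and low regions carry few counts.

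The tests were those of edgeR 4.0.16, with limma 3.58.1, run under R 4.3.3, with TMM scaling, 1 coefficient per group over all 12 libraries, two-sided quasi-likelihood tests, and Benjamini-Hochberg adjustment over 121336 regions. The filter filterByExpr removed no region, so all 93 passed it, and 2 of the 93 had 3 counts or fewer in every library of a group. For these, and wherever an interval is given, it is an exact 95% interval of the ratio of summed counts and covers counting error only. The biological coefficient of variation was 0.185. Genes and start sites were those of GENCODE M21 basic, and the scripts were tested on simulated data. Alternatives were DESeq2 1.42.0, other scalings (library size only, RLE, GC content and loess offsets, TMM on promoter regions), filters, thresholds, only the groups compared, a replicate block, leaving out each library, and other definitions of the members.

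Members and lists were chosen with earlier results of these data known. Single regions were named by rule: for each gene, its promoter (most counts within 500 bp of a start) and its distal region with the most counts; in each genotype comparison, the 4 called regions of smallest p in each direction whose genotypes did not overlap; and in the other comparisons the 2 of smallest p in each direction. Lack of overlap was thus fixed in advance for regions picked by p in a genotype comparison. Other called regions are named to account for the counts. Some items are not reported here.

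Deviations of same-numbered libraries from their group means correlated at 0.223, 0.257 and 0.264 between LSK and GMP in WT, at 0.112, 0.319 and 0.172 in URE, and at 0.117, 0.236 and 0.422 between genotypes in GMP, which met the criterion of over 0.1 in every pair. Between genotypes in LSK they were 0.15, 0.0627 and -0.109, which did not. The labels give no shared animal, litter or day.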

Additional observations from a re-analysis of the deposited data

Results flagged for a closer look

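In 8 regions the genotype effect differed between GMP and LSK by the interaction test (edgeR's quasi-likelihood test, adjusted p under 0.05 and a difference over 1 in log2), and these are listed for a closer look. They were 8.6% of the 93, where 14% of all regions were called, 8.96% higher and 5.03% lower. Such calls were thus not more frequent here than over all regions. At Vwf +132.7 kb the difference was -2.75, at Gp1ba +19.6 kb -2.15, at Itgb3 -8.2 kb -1.37, at Vwf -5.8 kb -1.18 and at the Itga2b promoter -1.11. At Itgb3 +29.3 kb it was 2.57, at Itgb3 +80.7 kb 2.32 and at Pf4 +17.3 kb 1.20. The calls at Itgb3 -8.2 kb, Vwf -5.8 kb and the Itga2b promoter were each lost when any 1 of several single libraries was left out. Groups of 3 libraries were not tested for a library that stands apart.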

How the results depend on the processing

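Counts of called regions are given here as percent of the regions tested, which were 93 except for 62 at a mean of at least 2 CPM, 53 with gene bodies extended by 5 kb, 44 by nearest start site and 87 to 93 with only the groups compared. With GC content offsets they were 20.4 higher in URE-LSK (7.53 as reported), 12.9 higher in URE-GMP (4.3) and 8.6 more negative in the interaction (5.38). Of all regions these were 22.1, 22.2 and 5.36. Adding the replicate block gave 20.4, 12.9 and 10.8, beside 22.3, 22.4 and 6.16 of all regions. The block alone gave 9.68 more negative in the interaction, beside 5.77 of all regions. It changed no other count by over 1.5 times. Loess offsets gave 14 higher in URE-LSK and 8.6 in URE-GMP, beside 21.7 and 21.9 of all regions. TMM on promoter regions gave 3.23 more negative in the interaction, beside 4.4. At a mean of at least 2 CPM, 4.84 were higher and 12.9 lower in URE-LSK and 12.9 lower in URE-GMP. Of all regions tested there these were 9.64, 17.9 and 18. Without a fold threshold, 32.3 were higher in URE-LSK and 22.6 in URE-GMP, beside 27.9 and 29.6 of all regions. Along the step, 29.0 were lower in WT (14), and 24.7 higher (15.1) and 39.8 lower (19.4) in URE. Of all regions these were 28.6, 35.4 and 32.6. In the interaction 9.68 were more negative, beside 6.61 of all regions. With glmTreat, 4.3 were higher in URE-LSK, 4.3 lower along the step in WT and 9.68 higher in URE. Of all regions these were 7.13, 9.02 and 22.3. In the interaction with glmTreat 1.08 (3.23) were more positive and 0.0 more negative, beside 2.43 and 0.622 of all regions. With gene bodies extended by 5 kb, 1.89 were higher in URE-GMP and 1.89 more positive in the interaction, and with members taken by nearest start site 0.0 were higher in URE-GMP and 4.55 in URE-LSK. All other settings kept these shares within 1.5 times, apart from leaving out single libraries, which moved some of them further.

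With each library left out in turn, the share higher was 5.38 to 9.68 in URE-LSK, 4.3 to 7.53 in URE-GMP (highest without WT-GMP replicate 3), 12.9 to 15.1 along the step in WT, 14 to 16.1 in URE and 3.23 to 5.38 in the interaction. The share lower was 20.4 to 22.6, 20.4 to 23.7, 14 to 19.4, 17.2 to 21.5 and 2.15 to 7.53.

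Of 2238 values of named regions under the alternatives, 2100 kept their direction and side of the thresholds, 63 gained a call, 30 lost one and 45 reversed, none of the last called as reported. Some reversals were at values near 0 or of few counts. Others were at abundant regions, such as the Pf4 promoter and Vwf +20 kb in LSK, and the latter had passed the adjusted p alone. The cause was not tested. In LSK, the Pf4 promoter was 0.062 with GC content offsets and 0.091 with the block added, Vwf +20 kb 0.0726 and 0.0695, Itgb3 +1.4 kb 0.0828 and 0.0921, and the Vwf promoter 0.9 with loess offsets. In GMP, the Vwf promoter was 0.978 with loess offsets. Itga2b +2.6 kb was -0.0694 with library size only, -0.0905 with TMM on promoter regions, -0.137 with loess, -0.0199 with GC content, -0.0174 with the block and GC content, and -0.0154 at a mean of 2 CPM. Pf4 +17.3 kb was -0.106, -0.121 and -0.0591 with the first 3 of these and -0.0562 at a mean of 2 CPM. Itgb3 +38.8 kb was 0.046 with DESeq2, 0.0431 with RLE, 0.054 with loess, 0.0565 with GC content, 0.00422 with the block and 0.0804 with both. Itgb3 +39.5 kb was 0.0522 with DESeq2, 0.0495 with RLE, 0.0859 with GC content, 0.000217 with the block and 0.0969 with both. Leaving out 1 library gave -0.065 to 0.178 for Itga2b +2.6 kb, -0.176 to 0.283 for Itgb3 +38.8 kb, -0.089 to 0.0904 for Itgb3 +39.5 kb, -0.0832 to 0.126 for Pf4 +17.3 kb and -0.957 to 0.261 for the Vwf promoter, all in GMP, -0.165 to 1.08 for Itgb3 +72.4 kb in LSK, and -0.335 to 0.946 for the interaction at the Vwf promoter.

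With 3 libraries a group, changes near the fold threshold were called or not depending on single libraries, and at regions of a few counts the size of a loss was not measurable at this depth.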
